A study of Homo sapiens with 4 samples.

Results

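The HNRNP and SRSF genes, which encode regulators of pre-mRNA splicing, were taken as every row of the deposited expression tables whose gene symbol is HNRNP or SRSF followed only by capitals and digits. This gave 41 of 26255 rows, of which 29 were HNRNP and 12 were SRSF genes. Rows with a hyphen in the symbol, such as the read-through transcript RPL36A-HNRNPH2, are not members. A total of 33 members (22 HNRNP, 11 SRSF) reached 1 FPKM in at least 2 of the 4 libraries and were tested, and each of them was above that level in all 4 libraries. FPKM, fragments per kilobase of transcript and per mega (M) fragments, is a level per transcript length, so values of different genes can be set side by side.

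The libraries came from HCT116, an established human colorectal cancer line, with 2 libraries of cells labelled as a knockout of C14orf159 (KO) and 2 of control cells labelled as transfected with an empty vector (EV control). The column names call the knockout columns sgDGLUCY, after the current symbol of C14orf159, and the control columns AAVS1, a site often targeted as a neutral control. The series asks how this mitochondrial matrix protein bears on migration, invasion and spheroid growth. All 4 libraries were made from total RNA with a stranded poly(A) kit. The labels do not say whether the knockout cells were a clone or a pool, nor whether replicates came from separate cultures. The p-values therefore cover only the variation among these 4 libraries, and that variation may be technical.

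C14orf159 itself stood at 16.2 and 16.4 FPKM in the EV controls, 2.52 in KO replicate 1 and 10.8 in KO replicate 2, which is 15.5% and 66.2% of the EV mean (limma-trend, adjusted p = 0.314). The RNA level of the library labelled KO replicate 2 thus does not by itself show a knockout, and protein was not analysed here. Rough depths, estimated from the smallest steps between low values, were 12.5 to 13.4 M fragments per library. Of 9 colorectal epithelial markers, 6 were expressed, with summed levels of 3371 to 3545 FPKM in EV control and 3350 to 3715 in KO libraries. VIL1, LGALS4 and CEACAM5 were below 1 FPKM in every library. Fibroblast and endothelial markers summed to at most 0.359 FPKM, and leukocyte markers to at most 3.004 FPKM with PTPRC and CD3E listed at 0 throughout.

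Heterogeneous nuclear ribonucleoproteins (hnRNPs) coat nascent transcripts and often repress nearby splice sites, and several also act in RNA export, stability and translation. SR proteins, the products of the SRSF genes, carry a domain rich in arginine and serine that is phosphorylated by SRPK and CLK kinases, and they typically promote exon inclusion by recruiting U1 and U2 components. Many members of both families are abundant in dividing cells and limit their own levels through exons that lead to decay of the transcript.

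Some of these genes share sequence with others, which bears on how reads could be assigned. HNRNPH1 and HNRNPH2, close paralogs on chromosomes 5 and X, are shown first because HNRNPH2 is the member with the largest difference between the groups. Their coding sequences are both 1350 bases long and identical at 1183 positions (87.6%), with a longest identical run of 50 bases. The 120 coding bases around that run, positions 737 to 856 counted from the first base of the start codon, are printed 5′ to 3′ from the GENCODE release 29 transcripts, with the 11 positions that differ in capitals.
HNRNPH1: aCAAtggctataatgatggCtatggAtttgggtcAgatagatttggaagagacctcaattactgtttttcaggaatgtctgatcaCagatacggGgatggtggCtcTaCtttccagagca
HNRNPH2: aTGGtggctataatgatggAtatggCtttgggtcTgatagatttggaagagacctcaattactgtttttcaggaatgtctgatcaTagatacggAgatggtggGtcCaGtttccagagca

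Of the 2174 windows of 50 bases in the HNRNPH2 transcript, 1 occurred in any of the 50 HNRNPH1 transcript models, whereas 315 (14.5%) occurred in the models of RPL36A-HNRNPH2, a transcript that runs from the ribosomal protein gene RPL36A into HNRNPH2. The pseudogene HNRNPA1P10 is nearly a copy of the HNRNPA1 coding sequence, identical at 958 of 962 aligned positions (99.6%), and 72.8% of its 50-base windows occurred in HNRNPA1 transcripts. Levels of HNRNPA1 and HNRNPA1P10 are therefore uncertain, since the processing notes name the tools, Cuffnorm among them, but not how shared fragments were divided. The same holds for HNRNPA1L2, with 47.6% of windows in common with HNRNPA1, and for HNRNPUL2, with 45.2% in common with the read-through HNRNPUL2-BSCL2. No 50-base window of SRSF8 occurred in SRSF2 models, of SRSF5 in SRSF6, of HNRNPUL1 in HNRNPUL2 or of HNRNPF in HNRNPH1.

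The families spanned a wide range of levels. HNRNPA2B1 and HNRNPA1, which bind purine-rich and UAG-containing RNA, were the most abundant, with means over the 4 libraries of 568 and 566 FPKM. HNRNPC, which coats uridine tracts, followed at 389 FPKM, then HNRNPH1 (354) and the poly(C)-binding HNRNPK (352). These 5 genes held 56.3% of the summed HNRNP level in EV control and 58.3% in KO libraries, leaving out HNRNPA1P10. In the SRSF family SRSF9 was highest at 261 FPKM and SRSF8 lowest of the tested members at 16.8. By mean level 19 tested members were at 100 FPKM or more, 13 between 10 and 100, and HNRNPA1L2 alone between 1 and 10 (4.50 FPKM).

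**Figure D1:**
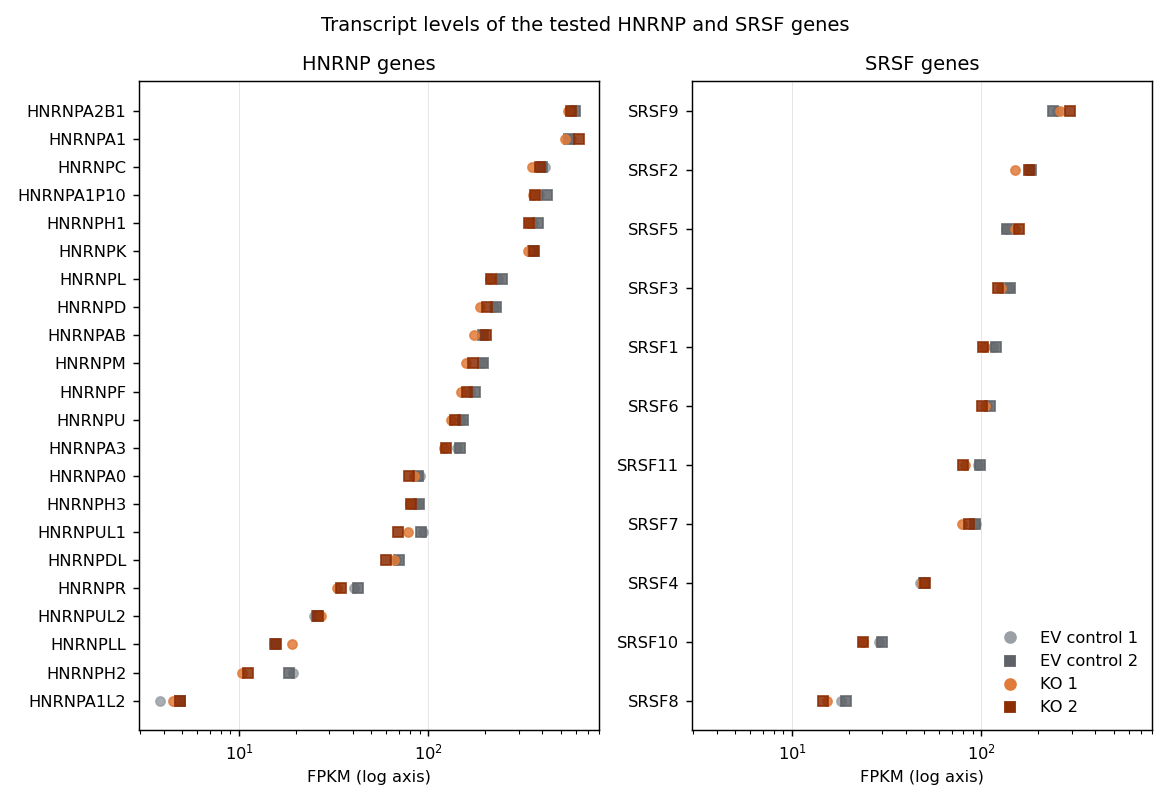
FPKM of the 33 tested HNRNP and SRSF genes on a log axis, each point 1 library (grey EV control, orange and brown KO). Points of a gene lie close together compared with the distance between genes, with means from 4.50 FPKM for HNRNPA1L2 to 568 for HNRNPA2B1, and the widest gap between the groups at HNRNPH2.

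The other 8 members were not tested. HNRNPCL1, HNRNPCL2, HNRNPCL3, HNRNPCL4 and HNRNPKP3 were listed at 0 in all 4 libraries. SRSF12 was at 0.0202 and 0.0394 FPKM in EV control and 0.0214 and 0.0208 in KO, values in the ratio of 1, 2, 1 and 1 fragments once the value of a fragment in each library was taken out. The pseudogene HNRNPA3P1 lay between 0.0245 and 0.0954 FPKM, in the ratio of 1, 4, 2 and 1 fragments. The pseudogene HNRNPA1P33 had 0.411 and 0.600 FPKM in EV control and 0.871 and 1.06 in KO libraries.

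The comparison of KO with EV control cells asked whether these regulators differ between cells labelled as C14orf159 knockout and their controls, with the target's RNA still at 66.2% of the EV mean in KO replicate 2. Most of the tested members lay slightly lower in the KO libraries. In bulk RNA, fewer cells that express a gene and less RNA per cell cannot be told apart. For 24 of 33 both KO libraries were below both EV controls, against 25.6% of all 12701 tested genes, and for 4 (SRSF5, SRSF9, HNRNPLL and HNRNPUL2) both were above, against 26.5%. The groups overlapped for HNRNPA1, HNRNPK, HNRNPAB, HNRNPA1L2 and SRSF4. The median log2 change, KO minus EV control on the log2(FPKM + 1) scale, was -0.13 over 22 HNRNP and -0.18 over 11 SRSF genes, where the median of all tested genes was 0.00307. In linear terms the median member stood at 90.8% of its EV mean. The summed level of the tested HNRNP genes, HNRNPA1P10 included, was 4381 and 4476 FPKM in EV control and 3989 and 4235 FPKM in KO libraries. Without HNRNPA1P10 it was 3996 and 4055 FPKM in EV control and 3632 and 3871 FPKM in KO. The summed level of the SRSF genes was 1215 and 1217 FPKM in EV control and 1145 and 1212 FPKM in KO. Among the 897 tested genes with a mean of 100 FPKM or more, 18.5% had both KO libraries below both controls, and 14 of the 19 members at that level did.

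No member passed the test across all genes. In limma-trend with Benjamini-Hochberg adjustment over the 12701 genes, 0 members were higher and 0 lower at an adjusted p under 0.05 (0.0551% of all genes in each direction), and the smallest adjusted p among members was 0.116, for HNRNPH2. At an unadjusted p under 0.05, 8 of 33 members were lower, against 7.22% of all tested genes, and 0 were higher, against 9.23%. The 8 were HNRNPH2, SRSF10, HNRNPR, SRSF8, HNRNPUL1, SRSF11, HNRNPA3 and HNRNPM. This count rested on both controls. With either one left out, the variation came from the KO pair alone, the SE of all 8 widened and their changes stayed negative. For SRSF10 the log2 change was -0.29 (SE 0.0743) with both controls. It was -0.32 without EV control replicate 1 and -0.27 without EV control replicate 2 (SE 0.164 in each). Fewer members, and a smaller share of all tested genes, then lay lower at an unadjusted p under 0.05. With a lone KO library, assumed to vary as the controls do, 2 members were higher and 5 lower at an adjusted p under 0.05 without KO replicate 1, where the calls took 10.9% of all tested genes in the higher and 6.62% in the lower direction. Without KO replicate 2, 0 members were higher and 8 lower, where the shares of all tested genes were 6.29% and 6.94%. HNRNPH2, SRSF10 and SRSF11 were lower in both of these fits, which share their control libraries.

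Taken alone, KO replicate 1 lay below both EV controls for 27 of 33 members, against 42.8% of all tested genes, and above both for 4, against 41.3%. KO replicate 2 lay below both for 24 members, against 41.4%, and above both for 8, against 45.7%. The median member stood at 89.2% of the EV mean in KO replicate 1 and at 91.7% in KO replicate 2. The 19 members at 100 FPKM or more had median log2 differences of -0.16 and -0.12 in KO replicates 1 and 2. All 897 tested genes at that level had -0.064 and 0.125, so the KO libraries themselves differed there. For the 13 members between 10 and 100 FPKM the medians were -0.23 and -0.21, against -0.030 and 0.021 over all tested genes at that level. These comparisons use the same controls. The KO libraries differed from each other by a median of 0.0737 in log2 over the members and the EV controls by 0.0417, where the median size of the group difference was 0.16.

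**Figure D2:**
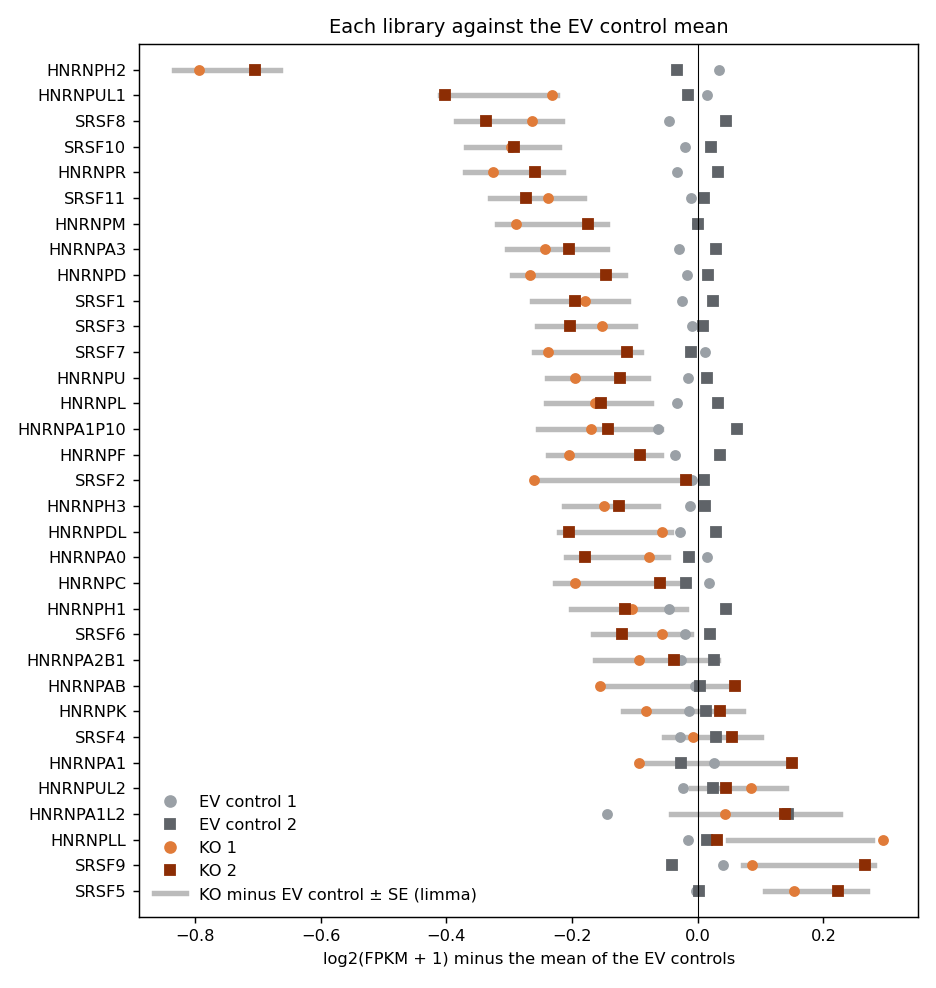
Each library's log2(FPKM + 1) minus the mean of the EV controls for the 33 tested members (points), with the fitted difference of KO minus EV control ± SE as a grey bar. Both KO points lie left of both grey control points for 24 members, furthest for HNRNPH2 (-0.75), and right of them for 4, with SRSF5 (0.19) at the bottom.

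HNRNPH2 belongs to the F/H group, which binds runs of guanines and regulates exons near them. It stood at 19.2 and 18.3 FPKM in EV control and at 10.4 and 11.1 in KO libraries (18.8 ± 0.643 and 10.8 ± 0.515, SD, n = 2 per group). The groups were well apart, and the KO mean was 57.4% of the EV mean. The log2 change was -0.75 (SE 0.0841, limma-trend adjusted p = 0.116), and it was the only one of the 33 tested members past a 1.5-fold difference. It lay between -0.80 and -0.70 under every alternative run, with adjusted p from 0.0817 to 0.227 where all 4 libraries were kept. The adjusted p was 0.00767 and 0.0104 with a lone KO library and 0.688 and 0.823 with a lone control. From the rough depths these levels correspond to about 556, 545, 289 and 318 fragments, for which counting alone gives an error of 4.24% to 5.89%.

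The relatives of HNRNPH2 showed smaller differences. HNRNPH1 stood at 356 and 379 FPKM in EV control and 342 and 339 in KO libraries (log2 change -0.11, SE 0.0921, limma-trend adjusted p = 0.578). HNRNPF stood at 167 and 175 FPKM in EV control and 148 and 160 in KO libraries, and HNRNPH3 at 88.0 and 89.5 against 79.9 and 81.3. For all of them both KO libraries were below both controls, but for HNRNPH1 and HNRNPF the gap was smaller than that between the controls. The ratio of HNRNPH2 to HNRNPH1 within a library, which a single scaling factor per library does not alter, was 5.41% and 4.84% in EV control and 3.05% and 3.29% in KO, whereas that of HNRNPH3 to HNRNPH1 overlapped (24.7% and 23.6%, 23.4% and 24.0%). Only 2 libraries per group were compared, so an exact permutation test of a ratio could not have passed a threshold of 0.05 and none was run.

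The neighbours of HNRNPH2 on the X chromosome were also set beside it. RPL36A-HNRNPH2, which shares sequence with it, stood at 43.0 and 46.8 FPKM in EV control and 46.1 and 42.8 in KO libraries, so the groups overlapped. RPL36A, which encodes a protein of the large ribosomal subunit, stood at 759 and 739 FPKM in EV control and 808 and 950 in KO (limma-trend adjusted p = 0.434), so both KO libraries were above both controls. The sum of HNRNPH2 and RPL36A-HNRNPH2 was 62.3 and 65.1 FPKM in EV control and 56.5 and 53.9 in KO. GLA, the gene next to HNRNPH2, which encodes a lysosomal galactosidase, had 21.2 and 22.0 FPKM in EV control and 20.8 and 20.2 in KO. The 20 genes around it, 10 on each side among those averaging 5 FPKM or more, had a median log2 difference from the EV mean of -0.035 in the first KO library and -0.056 in the second, where HNRNPH2 had -0.79 and -0.70. How fragments were divided between HNRNPH2 and RPL36A-HNRNPH2 in each library was not tested.

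**Figure D3:**
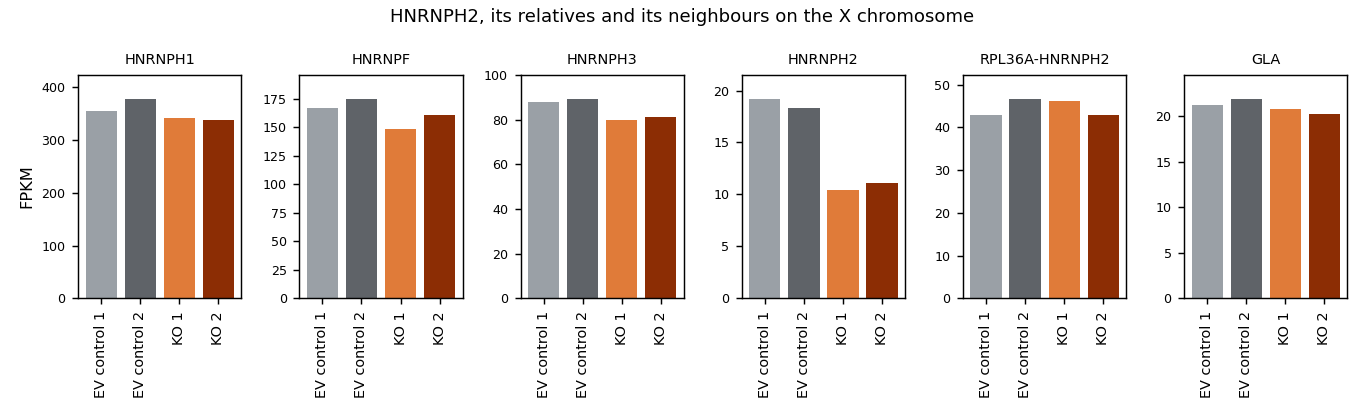
FPKM in each library (bars, grey EV control, orange and brown KO, each panel with its own axis from 0) of HNRNPH2, its paralogs HNRNPH1, HNRNPF and HNRNPH3, and the neighbouring rows RPL36A-HNRNPH2 and GLA. HNRNPH2 stands at 19.2 and 18.3 FPKM in EV control and 10.4 and 11.1 in KO, while RPL36A-HNRNPH2 overlaps between the groups.

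Among other hnRNPs, HNRNPR and HNRNPUL1 showed the next largest differences. HNRNPR, which binds RNA through several recognition motifs and is known for roles in neurons, stood at 40.4 and 42.3 FPKM in EV control and 32.8 and 34.4 in KO libraries (log2 change -0.29, SE 0.0784, limma-trend adjusted p = 0.226). HNRNPUL1, a relative of the scaffold protein HNRNPU that acts at DNA breaks, stood at 93.1 and 91.1 FPKM in EV control and 78.3 and 69.5 in KO (-0.32, SE 0.0925, adjusted p = 0.242 in limma-trend). In both genes the groups were separated by more than either pair of replicates. The paralog HNRNPUL2 stood at 25.0 and 25.9 FPKM in EV control and 27.0 and 26.2 in KO, so HNRNPUL1 was 373% and 352% of HNRNPUL2 in EV control and 290% and 265% in KO libraries. The read-through HNRNPUL2-BSCL2 had 25.7 and 25.3 FPKM in EV control and 24.2 and 23.8 in KO, while its downstream partner BSCL2, the seipin gene of lipid droplets, had 4.47 and 4.77 against 7.30 and 7.59 (log2 change 0.59, limma-trend adjusted p = 0.160). How fragments were shared among these rows was not tested. HNRNPU, which binds chromatin-associated RNA, stood at 149 and 152 FPKM in EV control and 132 and 138 in KO.

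The A/B and D groups showed smaller differences in mixed order. HNRNPA3 stood at 141 and 147 FPKM in EV control and 121 and 124 in KO libraries (log2 change -0.22, SE 0.0798, limma-trend adjusted p = 0.285). HNRNPD, also called AUF1, which binds AU-rich elements and promotes decay of the mRNAs that carry them, stood at 222 and 227 FPKM in EV control and 187 and 203 in KO. The KO libraries were separate from the controls in both. HNRNPA2B1 stood at 570 and 592 FPKM in EV control and 544 and 566 in KO (-0.07, SE 0.0986). HNRNPA1 stood at 569 and 549 FPKM in EV control, 524 FPKM in the first KO library and 621 FPKM in the second. HNRNPA1 thus lay on opposite sides of the controls in the KO libraries (log2 change 0.028, SE 0.124, limma-trend adjusted p = 0.924), and its sign turned to -0.071 with quantile normalization. HNRNPA1P10 was listed at 385 and 421 FPKM in EV control and 358 and 365 in KO, and its ratio to HNRNPA1 was 67.6% and 76.6% in EV control and 68.3% and 58.8% in KO, with no separation. HNRNPA1L2, a retrocopy of HNRNPA1, had 3.81 and 4.87 FPKM in EV control and 4.48 and 4.85 in KO. HNRNPA0, a substrate of stress kinases that binds AU-rich elements, had 89.9 and 88.2 FPKM against 84.3 and 78.5, and HNRNPDL, a paralog of HNRNPD, had 67.4 and 70.2 against 66.1 and 59.6. HNRNPA0 and HNRNPDL lay below the controls in both KO libraries.

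HNRNPM, which acts on exon choice in epithelial and mesenchymal cells, stood at 193 and 193 FPKM in EV control and 158 and 171 in KO libraries (log2 change -0.23, SE 0.0872, limma-trend adjusted p = 0.298). HNRNPL, which binds CA repeats, stood at 233 and 244 FPKM in EV control and 213 and 214 in KO. Its paralog HNRNPLL, known from CD45 splicing in lymphocytes, lay on the other side, with 15.2 and 15.5 FPKM in EV control, 19.1 in KO replicate 1 and 15.7 in KO replicate 2. That difference came almost wholly from KO replicate 1. HNRNPC stood at 411 and 400 FPKM in EV control and 354 and 389 in KO. HNRNPK, at 351 and 358 against 335 and 363, and HNRNPAB, at 192 and 193 against 173 and 201, overlapped between the groups, with the lower KO value in replicate 1 in each.

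In the SRSF family, 8 of 11 tested genes had both KO libraries below both controls. SRSF10, an SR-like protein that represses splicing when it is dephosphorylated by heat shock or in mitosis, stood at 28.9 and 29.7 FPKM in EV control and 23.7 and 23.7 in KO libraries (log2 change -0.29, SE 0.0743, limma-trend adjusted p = 0.212). SRSF8, a retrotransposed relative of SRSF2, stood at 18.0 and 19.3 FPKM in EV control and 15.4 and 14.6 in KO (-0.30, SE 0.0840, adjusted p = 0.232 in limma-trend). SRSF11, at 96.4 and 97.8 FPKM against 82.2 and 80.1, had a change of -0.26 (SE 0.0753). In KO cells these 3 stood at 80.9%, 80.2% and 83.6% of their EV means. KO replicate 2 minus KO replicate 1 was 0.0036, -0.074 and -0.036 in log2.

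SRSF1, among the first SR proteins described, stood at 115 and 119 FPKM in EV control and 103 and 102 in KO libraries (-0.19, SE 0.0770, limma-trend adjusted p = 0.323). SRSF3, the smallest SR protein, stood at 141 and 142 FPKM in EV control and 127 and 123 in KO, and SRSF7, its close relative in nuclear export of mRNA, at 94.2 and 92.7 against 79.0 and 86.3. All of these had separate groups. SRSF2 stood at 180 and 182 FPKM in EV control, 151 in KO replicate 1 and 179 in KO replicate 2, so its separation rested on 1 library. SRSF6 stood at 107 and 110 FPKM in EV control and 105 and 100 in KO (log2 change -0.09, SE 0.0787, limma-trend adjusted p = 0.600). SRSF4, at 47.6 and 49.5 against 48.3 and 50.5 FPKM, overlapped.

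SRSF5 and SRSF9 lay above their controls. SRSF5, an SR protein first described as induced in regenerating liver, stood at 135.6 and 136.0 FPKM in EV control and 151.1 and 158.7 in KO libraries (log2 change 0.19, SE 0.0805, limma-trend adjusted p = 0.336). SRSF9 stood at 251 and 238 FPKM in EV control and 260 and 294 in KO (0.18, SE 0.105, adjusted p = 0.453 in limma-trend). The ratio of SRSF5 to SRSF6 was 126% and 123% in EV control and 144% and 158% in KO, and SRSF9 took 20.1% of the summed SRSF level in EV control and 23.5% in KO. SRSF5 lies on chromosome 14, as does C14orf159, with 52 genes averaging 5 FPKM or more between them. The 20 genes nearest SRSF5 had median differences of 0.26 and 0.11 in KO replicates 1 and 2, where SRSF5 had 0.15 and 0.22, whereas those nearest C14orf159 had -0.59 and 0.046. The part of these surrounding genes' levels in the value of SRSF5 was not tested.

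Gene order was taken among tested genes averaging 5 FPKM or more, which left out HNRNPA1L2 (mean 4.50 FPKM). The 32 of 33 tested members that were placed lay on 15 chromosomes. The medians of their surrounding genes ranged from -0.10 (HNRNPUL2) to 0.26 (SRSF5) in KO replicate 1 and from -0.13 (HNRNPA0) to 0.22 (SRSF2) in KO replicate 2. The 20 genes nearest SRSF10 had medians of 0.12 and 0.11 in KO replicates 1 and 2, where SRSF10 itself had -0.30 and -0.29. Those nearest HNRNPR had 0.023 and 0.057, against its own -0.33 and -0.26, and those nearest HNRNPUL1 had -0.0019 and 0.090, against -0.23 and -0.40. Of 24 placed members with negative differences in both KO libraries, the surrounding genes had negative medians in both for 7, positive medians in both for 8 and mixed signs for 9. Among the 7 were HNRNPA0, with -0.078 and -0.18 of its own and surroundings at -0.085 and -0.13, and SRSF6, with -0.057 and -0.12 of its own and surroundings at -0.078 and -0.066.

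The other genes of the splicing pathway were compared through 9 lists. In limma-trend 0 genes of these lists passed at an adjusted p under 0.05. The counts at an unadjusted p under 0.05 are given for each list. Of all tested genes, 7.22% were lower and 9.23% higher at that unadjusted level. Among the 13 tested hnRNP relatives under other symbols, 9 had both KO libraries below both controls and 0 above (median log2 change -0.13, with -0.17 and -0.090 in KO replicates 1 and 2, 3 lower and 0 higher at an unadjusted p under 0.05). CIRBP, a cold-inducible RNA-binding protein, stood at 196 and 193 FPKM in EV control and 146 and 155 in KO, and SYNCRIP, also called hnRNP Q and a paralog of HNRNPR, at 122 and 125 against 99.6 and 99.8. Among 15 SR-related proteins 9 were below and 0 above (median -0.12, 5 lower and 0 higher), with SREK1 at 21.7 and 24.0 FPKM against 18.4 and 17.4 and the speckle scaffold SRRM2 at 102 and 109 against 90.1 and 81.5. Of the 7 tested kinases of SR proteins 1 was below and 4 above (median 0.057, 0 lower and 0 higher), with PRPF4B at 20.1 and 21.4 FPKM against 18.5 and 16.7 and CLK3 at 34.3 and 30.8 against 35.1 and 38.7. Of 5 nuclear transport receptors 3 were below and 0 above (median -0.13, with -0.072 and -0.15 in KO replicates 1 and 2, 1 lower and 0 higher), among them TNPO1, the importin of hnRNP A1, at 18.9 and 21.3 FPKM against 16.2 and 16.8, and the mRNA exporter NXF1 at 28.7 and 29.1 against 24.6 and 26.0.

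Components of the splicing machinery were counted by class. Of 10 tested U1 and Sm proteins 0 were below and 0 above (median 0.0076, with -0.11 and 0.12 in KO replicates 1 and 2, and 0 lower or higher at an unadjusted p), with SNRPD1 at 120 and 120 FPKM in EV control and 102 and 122 in KO, and SNRPD3 at 53.8 and 54.0 against 47.0 and 54.5. Of 15 branch point and U2 proteins 9 were below and 1 above (median -0.12, with -0.16 and -0.067 in the KO replicates, 3 lower and 0 higher). U2AF2, which binds the polypyrimidine tract, stood at 94.1 and 95.7 FPKM in EV control and 72.1 and 76.0 in KO, and SF3B3 at 31.8 and 33.3 against 26.6 and 26.3. Of 11 tri-snRNP proteins 6 were below and 0 above (median -0.20, with -0.22 and -0.038 in KO replicates 1 and 2, 5 lower and 0 higher), led by PRPF8, the central scaffold of the spliceosome, at 86.0 and 87.1 FPKM against 66.8 and 63.3, and PRPF4 at 37.9 and 39.1 against 30.0 and 31.0. Nonsense-mediated decay and exon junction genes had 8 of 14 below and 1 above (median -0.13, 4 lower and 0 higher), with the helicase UPF1 at 29.2 and 29.5 FPKM against 24.6 and 25.2. The list labelled tissue-restricted regulators had 5 of 15 below and 1 above (median -0.052, with -0.012 and -0.11 in the KO replicates, 0 lower and 1 higher). The 1 higher was KHDRBS3, at 5.26 and 5.27 FPKM against 6.40 and 7.22, while QKI stood at 2.53 and 2.58 against 1.98 and 1.99. The label is that of the list and need not hold for each gene counted. KHDRBS1 on it averaged 109 FPKM, while RBFOX1, RBFOX3, CELF2, NOVA1, NOVA2 and SRRM4 were not tested. Most of the U1 and Sm genes averaged 100 FPKM or more. All 897 tested genes at that level had medians of -0.064 and 0.125 in KO replicates 1 and 2, and 18.5% of them were below. These lists were not tested against each other. The share below among all tested genes is the 25.6% given above, and 7.22% were lower and 9.23% higher at an unadjusted p under 0.05 in limma-trend.

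**Figure D4:**
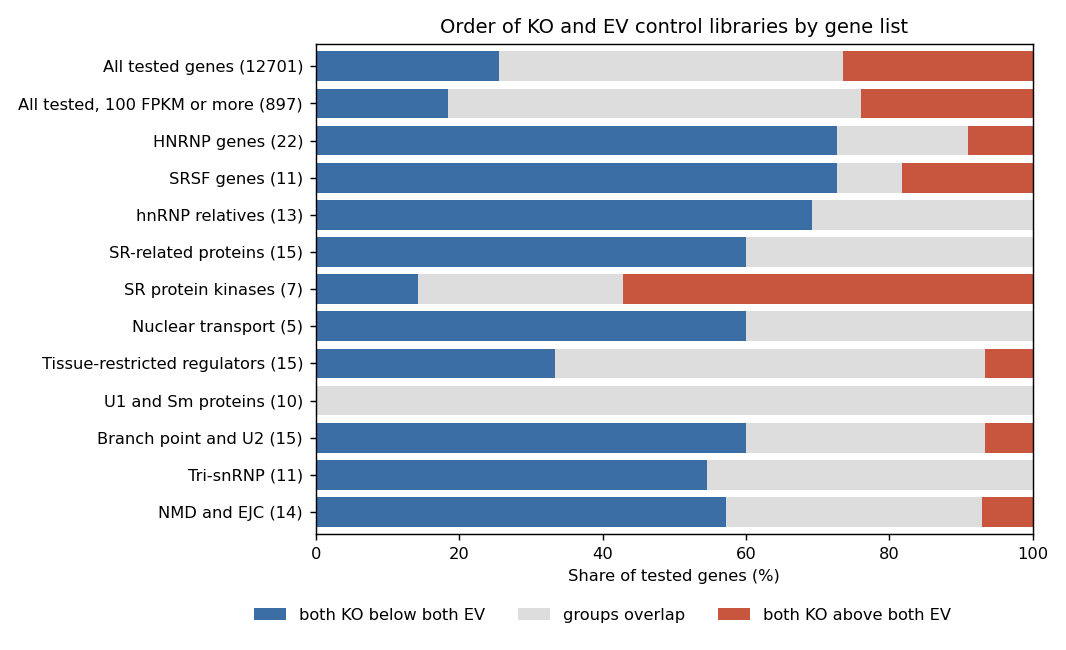
Share of tested genes in each list (number in brackets) with both KO libraries below both EV controls (blue), above them (red) or overlapping (grey). Both HNRNP and SRSF genes have 72.7% in blue, against 25.6% of all tested genes and 18.5% of those at 100 FPKM or more. U1 and Sm proteins have 0 of 10 in blue, and the SR protein kinases have 4 of 7 in red.

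The promoters of members were examined for letters in common. Members below, above or overlapping their controls were counted in the same set. Whether such letters go with the direction of a member's difference was not tested. RefSeq promoters (GRCh38.p14, 250 bases before to 50 after the start) were found for 30 of 33 tested members. The 4 shown belong to members below their controls (HNRNPH2, SRSF10, HNRNPR) and above them (SRSF5), each with a single start in the promoter table, written 5′ to 3′ on the gene's strand. Capitals mark matches on either strand to 6 motifs, which are the ETS core CCGGAAG, the GC box GGGCGG, the CCAAT box CCAAT, the E-box CACGTG, the TCF/LEF core CTTTGAT and the TATA box TATAAA.
HNRNPH2, chrX:101407972-101408271, plus strand: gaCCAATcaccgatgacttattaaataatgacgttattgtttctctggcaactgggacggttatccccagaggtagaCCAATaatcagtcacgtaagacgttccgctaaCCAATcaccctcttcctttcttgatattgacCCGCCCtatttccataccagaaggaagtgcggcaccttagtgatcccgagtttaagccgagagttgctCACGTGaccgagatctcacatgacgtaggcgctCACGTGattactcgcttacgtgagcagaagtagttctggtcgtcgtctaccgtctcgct
SRSF10, chr1:23980278-23980577, minus strand: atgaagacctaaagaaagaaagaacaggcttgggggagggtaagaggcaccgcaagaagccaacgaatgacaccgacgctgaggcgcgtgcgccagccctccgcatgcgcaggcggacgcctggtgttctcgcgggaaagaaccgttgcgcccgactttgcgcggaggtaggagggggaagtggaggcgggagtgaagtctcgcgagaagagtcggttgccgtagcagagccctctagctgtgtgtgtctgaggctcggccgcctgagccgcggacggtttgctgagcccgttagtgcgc
HNRNPR, chr1:23344235-23344534, minus strand: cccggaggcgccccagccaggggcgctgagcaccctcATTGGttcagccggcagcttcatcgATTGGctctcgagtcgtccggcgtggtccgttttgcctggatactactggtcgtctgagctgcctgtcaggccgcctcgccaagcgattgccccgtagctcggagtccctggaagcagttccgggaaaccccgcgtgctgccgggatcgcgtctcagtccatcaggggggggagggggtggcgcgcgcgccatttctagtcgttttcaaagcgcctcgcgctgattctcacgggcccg
SRSF5, chr14:69766892-69767191, plus strand: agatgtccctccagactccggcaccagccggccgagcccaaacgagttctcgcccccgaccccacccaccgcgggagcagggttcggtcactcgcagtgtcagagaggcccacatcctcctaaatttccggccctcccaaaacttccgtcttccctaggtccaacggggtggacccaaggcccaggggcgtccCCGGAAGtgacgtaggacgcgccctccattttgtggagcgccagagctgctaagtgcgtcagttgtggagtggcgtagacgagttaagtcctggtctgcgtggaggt

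The HNRNPH2 window held 6 matches (CCAAT boxes, a GC box and E-boxes) and had a GC content of 48.7%, whereas the median over 44 member promoters was 64.3% and that over promoters of tested genes 65.0%. The SRSF10 window held none of these motifs, HNRNPR held CCAAT boxes alone and SRSF5 an ETS core alone. Among 30 member genes, 63.3% had a CCAAT box in a promoter window, against 43.4% of the 9349 tested genes with a promoter and 34.6% of all windows. A TATA box was found in 20.0% of member genes (6 of 30) against 7.79% of tested genes, and an E-box in 23.3% (7 of 30) against 12.7%. GC boxes (70.0% against 78.4%) and ETS cores (16.7% against 22.9%) had lower shares among members. Each of these differences, higher or lower, rests on few of the 30 genes, and none was tested. The TCF/LEF core, the DNA element of Wnt-responsive factors, was found in 1 of 30 member genes (3.33%) and in 1.904% of tested genes. Members with several annotated starts have more windows in which a motif can occur, and these shares are descriptions of the letters alone.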

How the data were processed

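RNA-seq of 4 HCT116 libraries, 2 EV control and 2 KO, was used as deposited. The authors deposited FPKM values per gene symbol. The submitters' processing notes name TopHat2 2.0.13, Bowtie2 2.2.3, SAMtools 0.1.19, Cuffnorm 2.2.1 and hg19. Strand use, between-library scaling and the annotation were not given in the sources used here. Groups were taken from the sample titles.

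Values were transformed to log2(FPKM + 1), which understates the change of low genes, and the 12701 genes with at least 1 FPKM in at least 2 libraries were fitted with limma 3.58.1 in R 4.3.3 (mean-variance trend, group as the sole term), with Benjamini-Hochberg adjustment over all of them and a threshold of 0.05. The fit was tested on simulated data. Depths were estimated from genes with a single GENCODE release 29 transcript of 1000 to 6000 bases, as the median product of FPKM and length in kilobases within a preset window of 0.06 to 0.1. That window bounds the estimate, so the depths are rough. Sequence windows and coding sequences (the open reading frame of HNRNPH2 and the HNRNPH1 and HNRNPA1 frames nearest in length to their partners, aligned with Biopython 1.88) came from GENCODE release 29. Gene order and promoters came from RefSeq GRCh38.p14, which is not the build of the deposited values, and the printed coordinates belong to the promoters alone.

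Members and lists were chosen with earlier results of these data known. The 14 tested members with the smallest p and preset paralog pairs were given in every library, as were the 2 genes of each pathway list with the smallest p, except for 1 gene that is not reported here. Other members, GLA, BSCL2 and the read-through rows were chosen for naming once their values had been seen. The older symbols HNRPDL and HNRPLL in the relatives list denote members and were left out of it. Alternatives changed the pseudocount (0.1 and 0.5), the filter (none, or 5 FPKM), the scaling (median of ratios, or quantiles), the variance model (no trend, or robust), added a replicate block, dropped small RNA genes, or left out each library in turn.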

Additional observations from a re-analysis of the deposited data

How the results depend on the processing

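Over 14 alternatives and 20 named members (280 values), 264 kept their direction and their side of the threshold, 14 newly passed it, all in fits with a lone KO library, and 2 reversed, both of HNRNPA1 (-0.071 with quantile normalization and -0.094 without KO replicate 2, in a range that reached 0.15 without KO replicate 1). The cause was not tested. With all 4 libraries 0 members passed limma under any alternative, the smallest adjusted p was 0.0817 (HNRNPH2, robust limma-trend), and 5 to 12 members were lower at an unadjusted p under 0.05, against 4.59% to 8.64% of all genes in those fits. In the same fits 0 members were higher, except 2 without a filter and 1 with quantile normalization, against 7.13% to 9.75% of all genes. With single libraries left out, members called ranged from 0 to 2 higher and from 0 to 8 lower, and the medians from -0.16 to -0.12 for HNRNP and from -0.18 to -0.12 for SRSF genes. The HNRNP median was -0.17 with quantile normalization. Over all genes, where 7 were higher and 7 lower, there were 3 and 3 without a filter, 4 lower with quantile normalization, 3 higher in limma without trend, and 0 and 0 with small RNA genes left out (1225 and 945 by unadjusted p under 0.05). With single libraries left out the range was 6 to 1381 higher and 5 to 881 lower.

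With a replicate block 4 genes were higher and 8 lower, 0 members passed and 5 were lower at an unadjusted p under 0.05, against 4.59% of all genes in that fit. Nothing in the labels says that a number marks a shared culture, and the deviations of libraries with the same number had a correlation of -0.00455 over 12701 genes.

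Depth limits SRSF12 and HNRNPA3P1, which lay between 0.0202 and 0.0954 FPKM. With the value of a fragment in each library taken out, their levels were about 1 to 4 times the lowest of each gene. No difference was detectable there.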
